A study of Mus musculus with 9 samples.

Results

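Vcam1 and 6 other genes of immunoglobulin-type cell adhesion molecules, Icam1, Alcam, Mcam, Ncam1, L1cam and Nrcam, were followed across 9 RNA-seq libraries of HT22 cells. The 7 genes were taken by symbol from 54532 gene IDs and were selected on their FPKM in these same libraries, so their values are a description and carry no p-value. Of the 7 genes, 4 (Vcam1, Ncam1, Alcam and Mcam) averaged 0.5 FPKM or more across all 9 libraries and were among the 13245 genes that entered the fit. Icam1, L1cam and Nrcam stayed below that limit and are given as reads. FPKM, as the authors computed it, divides a gene's fragments by its length and by library depth. The length is a single annotated value per gene, whichever transcripts are expressed. Levels of different genes can thus be compared only roughly.

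HT22 is an immortalized line derived from mouse hippocampal neurons, used here without any genetic change. The OGE group (3 libraries) was kept without oxygen and glucose for 2 h (oxygen-glucose deprivation, OGD) and then given oxygen again for 24 h with hiPS-MSC-EVs, the extracellular vesicles of mesenchymal stem cells made from human induced pluripotent stem cells. The OGP group (3 libraries) went through the same OGD and the same 24 h with PBS in place of EVs, and the control group (3 libraries) was left untreated. The study asked what OGD changes in these cells, and what the EVs change after OGD. The paper ran the OGD step in medium without serum, while its standard medium held serum. Loss of serum thus cannot be told apart from loss of oxygen and glucose in comparisons with control. For the 24 h that followed, the paper lists medium with exosome-free serum, without serum, or with EVs. Its cell viability assays set the EVs against OGD without serum. The sources do not say which serum the OGP and OGE libraries had in these 24 h, so its part in any of the comparisons cannot be told apart. Nor do they say whether the 3 libraries of a group came from separate cultures, so the spread between these libraries may be technical.

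The libraries held 15026700 to 17368049 reads in genes for OGE, 16259448 to 19476806 for OGP and 17069241 to 18506865 for control. Mitochondrial genes took 2.03% to 2.90% of these reads in OGE, 2.45% to 3.25% in OGP and 1.10% to 2.31% in control. Pearson's r between libraries of a group, on log2(FPKM + 0.5), was 0.979 to 0.988 in OGE, 0.985 to 0.986 in OGP and 0.969 to 0.987 in control, where control replicate 1 gave 0.969 and 0.974 with the other controls. That library was also the highest control for each of Vcam1, Ncam1, Alcam and Mcam. Of the neuronal markers looked at, Dcx was at 0 in all 9 libraries and Tubb3 and Map2 alone averaged above 1 FPKM, while 7 of 9 mesenchymal and pericyte markers did, led by Col1a1 and Acta2. The summed FPKM of that mesenchymal list was 447 to 535 in OGE, 643 to 713 in OGP and 783 to 1117 in control, and its part in the differences between groups was not tested. Most of that sum is Col1a1, which averaged 369 FPKM in OGE, 383 in OGP and 777 in control. Acta2 was instead highest in OGP, with 89.7, 276 and 145 FPKM in OGE, OGP and control. The summed neuronal list was 13.6 to 17.7 in OGE, 12.4 to 13.4 in OGP and 7.94 to 10.5 in control. Most of it is Tubb3, with means of 14.0, 10.8 and 7.95 FPKM in OGE, OGP and control. Map2 was highest in OGP, at 2.13 FPKM against 1.34 in OGE and 1.32 in control. The summed astrocyte list, in which Slc1a3 alone averaged above 1 FPKM and Aqp4 was at 0, was 2.78 to 3.27 in OGE, 4.10 to 5.67 in OGP and 9.31 to 11.1 in control, and the oligodendrocyte list, with Mag at 0, was 0.772 to 0.906, 0.623 to 0.803 and 0.338 to 0.680. The part of these lists in the differences between groups was not tested either.

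Cell adhesion molecules of the immunoglobulin type carry extracellular immunoglobulin domains, which bind partners on neighbouring cells, among them the same molecule, other members of the family and integrins. VCAM-1 and ICAM-1 are known as the endothelial ligands that hold leukocytes, and cytokines induce both through NF-kB. NCAM, L1 and NrCAM are known from neurons, where they serve neurite growth and synapse formation, and ALCAM and MCAM are found on many cell types. Vascular endothelium and leukocytes share several of these genes, so their own markers were read first. In the endothelial list of 11 genes, Emcn and Sele were at 0, no gene averaged 0.5 FPKM, and the sum was 0.274 to 0.514 FPKM in OGE, 0.271 to 0.586 in OGP and 0.144 to 0.319 in control. In the list of 8 leukocyte and microglial genes, Itgam and Cd3e were at 0 and the sum was 2.22 to 3.75 FPKM in OGE, 3.83 to 4.59 in OGP and 3.51 to 3.60 in control, most of it from the lysosomal gene Cd68. In a bulk sample, fewer cells that express a gene and less RNA of it per cell cannot be told apart.

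The 250 bases before a RefSeq start site (GRCm38.p6) were at hand for 5 of the 7 genes, Icam1, Alcam, Mcam, L1cam and Nrcam. The windows of Alcam and L1cam, and part of that of Mcam, lie inside the gene spans given below. For these genes the start site used is not the outermost one annotated. Windows are shown for Icam1, whose induction by cytokines is known best, and for Alcam, the gene among these whose level was measurable and was called in a comparison. Both are written 5′ to 3′ toward the start site, Icam1 from the plus strand at chr9:21015690-21015939 and Alcam from the minus strand at chr16:52453082-52453331. Capitals mark matches, on either strand, to the motifs searched.
Icam1: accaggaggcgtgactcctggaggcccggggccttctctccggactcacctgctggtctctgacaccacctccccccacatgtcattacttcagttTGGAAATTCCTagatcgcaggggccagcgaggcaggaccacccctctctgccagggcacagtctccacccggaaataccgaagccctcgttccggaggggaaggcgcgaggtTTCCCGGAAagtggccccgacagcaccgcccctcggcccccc
Alcam: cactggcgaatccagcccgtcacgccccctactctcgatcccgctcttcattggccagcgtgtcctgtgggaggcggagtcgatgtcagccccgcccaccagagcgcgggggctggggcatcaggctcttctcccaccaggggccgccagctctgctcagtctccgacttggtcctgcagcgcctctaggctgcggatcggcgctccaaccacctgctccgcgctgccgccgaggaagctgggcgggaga
Bases are counted backward from the start site, the nearest being -1. The capitals in Icam1 at -154 to -144 are 2 overlapping matches, 1 on each strand, to the consensus of RelA and c-Rel, and those at -42 to -34 match the STAT motif TTCNNNGAA. A RelA and c-Rel match occurs in 6.94% and a STAT match in 7.02% of 32851 windows of the same length. Alcam, Mcam and Nrcam held no match to any motif searched, which besides these were the NF-kB consensus, TATAAA, the AP-1 motif TGANTCA, the IRF motif GAAANNGAA, the GATA motif (GATA after A or T and before A or G), and the E-box CACGTG. The share of windows with each of these was 7.25% for the NF-kB consensus, 12.4% for TATAAA, 6.75% for AP-1, 7.13% for IRF, 26.5% for GATA and 6.02% for the E-box. L1cam, with 2 overlapping windows, held GATA matches only. GC content was 65.2% in the Icam1 window and 69.2% in that of Alcam, against a median of 52.4% over all windows. A match names letters in a window and not a site that is bound.

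Vcam1 (ENSMUSG00000027962, chr3:116109949-116129688 in mm10, minus strand, 4 annotated transcripts of which 3 are coding) encodes the ligand of the integrins VLA-4 and alpha4-beta7. Its level was 0.872, 0.912 and 0.697 FPKM in OGE, 5.65, 6.41 and 6.34 FPKM in OGP, and 1.74, 1.28 and 1.58 FPKM in control. The 3 OGP libraries stood far above all others, the 3 OGE libraries lay below every control, and no group overlapped another. These levels rest on 138, 137 and 96 reads in OGE, 993, 931 and 915 in OGP, and 269, 193 and 260 in control. Means were 0.827 ± 0.114 FPKM in OGE, 6.13 ± 0.416 in OGP and 1.53 ± 0.230 in control (SD, n = 3 each). In OGE against OGP the ratio of means was 0.135 and the log2 fold change on the log2(FPKM + 0.5) scale was -2.32 (SE 0.120), which was the 22nd lowest of the 13245 genes fitted. In OGP against control the ratio was 4.0 and the log2 fold change 1.71 (SE 0.120), rank 26 from the top. In OGE against control the ratio was 0.540 and the log2 fold change -0.61 (SE 0.120). The last difference sits at the limit of 1.5-fold used to call a gene: it was -0.54 without OGE replicate 3, -0.54 without control replicate 1 and -0.47 with a pseudocount of 1, and was not called in these 3 fits. The added 0.5 FPKM shrinks a gene at this level, and voom on the reads gave -2.86 for OGE against OGP, 2.01 for OGP against control and -0.85 for OGE against control.

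**Figure D1:**
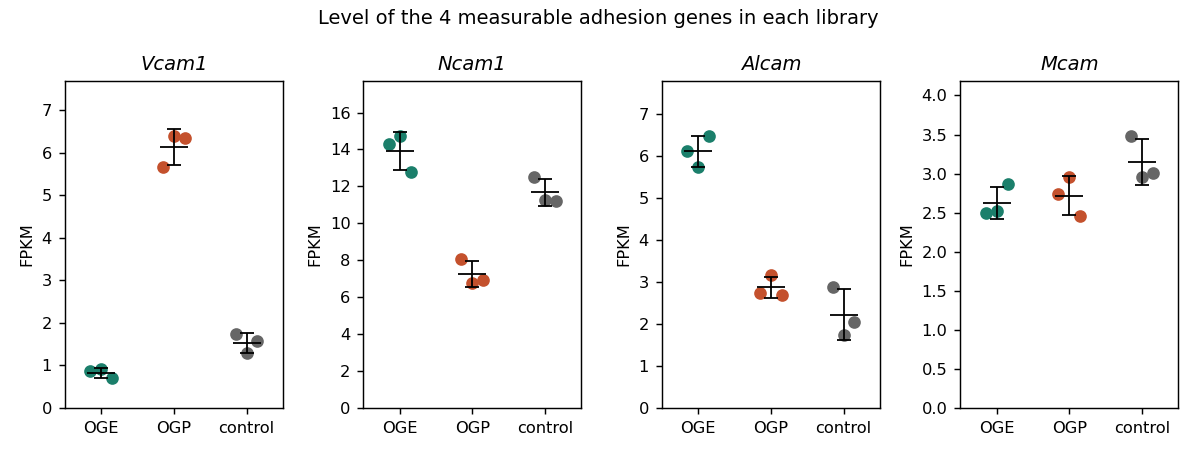
FPKM of Vcam1, Ncam1, Alcam and Mcam (y axis, each panel on its own scale from 0) in the OGE, OGP and control groups on the x axis, with 1 point a library and the mean with SD of 3 libraries as bars. Vcam1 is highest in OGP at 5.65 to 6.41 FPKM, Ncam1 is lowest in OGP, Alcam is highest in OGE, and the Mcam points of OGE and OGP lie in the same range.

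Icam1 (ENSMUSG00000037405, chr9:21015985-21028817, plus strand) encodes the ligand of the leukocyte integrin LFA-1 and is, with Vcam1, a textbook target of NF-kB. It had 0, 1 and 0 reads in OGE, 5, 1 and 4 in OGP, and 2, 2 and 1 in control, and its highest level in any library was 0.0579 FPKM. The summed reads were 1 in OGE (exact Poisson 95% interval 0.0253 to 5.57), 10 in OGP (4.80 to 18.4) and 5 in control (1.62 to 11.7). The intervals of OGE and OGP overlap, single libraries of all 3 groups had 1 read, and no test was made of these sums. These intervals, like those given for L1cam and Nrcam, cover counting error only. In OGP, where Vcam1 had 915 to 993 reads a library, Icam1 thus had at most 5. Gm47079, a gene model on the opposite strand of Icam1, reached 0.0370 FPKM. No source says that the libraries keep strand, so the few Icam1 reads could in part belong to it.

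Ncam1 (ENSMUSG00000039542, chr9:49502136-49798925, minus strand, 7 transcripts of which 6 are coding) encodes the neural cell adhesion molecule, which binds itself on neighbouring cells and also signals through FGF receptors and GFRA1. It had 14.3, 14.8 and 12.8 FPKM in OGE, 8.05, 6.74 and 6.95 FPKM in OGP, and 12.5, 11.3 and 11.2 FPKM in control. Every OGP library was below every library of the other groups, and OGE and control were separated by the narrow gap from 12.8 to 12.5 FPKM. Means were 13.9 ± 1.04 FPKM in OGE, 7.25 ± 0.703 in OGP and 11.7 ± 0.731 in control (SD, n = 3 each). The log2 fold change was 0.90 (SE 0.0925) in OGE against OGP, a ratio of means of 1.92. It was -0.65 (SE 0.0925) in OGP against control, a ratio of 0.621. In OGE against control it was 0.25 (SE 0.0925), under the limit for a call. The order of groups in Ncam1 is the reverse of that in Vcam1. A gene model on the opposite strand, Gm11149, reached 0.403 FPKM, and since no source says that the libraries keep strand, reads shared with it cannot be told apart.

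L1cam and Nrcam encode further neuronal molecules of the L1 type, which link the membrane to ankyrins. L1cam (ENSMUSG00000031391, chrX:73853778-73896105, minus strand) had 4, 4 and 1 reads in OGE, 2, 0 and 2 in OGP, and 2, 0 and 0 in control, with sums of 9 (4.12 to 17.1), 4 (1.09 to 10.2) and 2 (0.242 to 7.22). Nrcam (ENSMUSG00000020598, chr12:44328885-44601964, plus strand) had 2, 0 and 3 reads in OGE, 2, 1 and 0 in OGP, and 3, 2 and 5 in control, with sums of 5 (1.62 to 11.7), 3 (0.619 to 8.77) and 10 (4.80 to 18.4). The groups overlap for both genes, as do the intervals of their sums. The highest level in any library was 0.0322 FPKM for L1cam and 0.0201 FPKM for Nrcam, so of the 3 neural members of the set Ncam1 alone was measurable. L1cam also overlaps Arhgap4 on its own strand, which reached 0.223 FPKM, and Avpr2 on the opposite strand, which reached 0.0213 FPKM. The few reads of L1cam could belong to any of these genes.

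**Figure D2:**
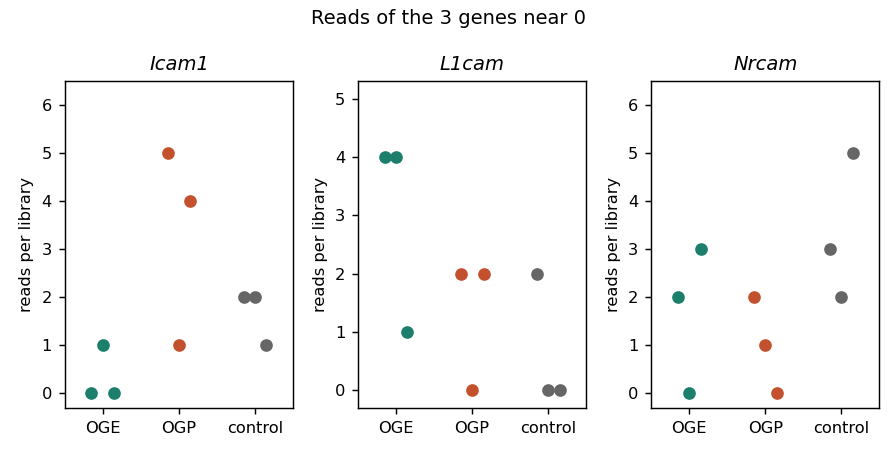
Reads in each library (y axis) for Icam1, L1cam and Nrcam in the OGE, OGP and control groups on the x axis, with 1 point a library. No library holds more than 5 reads of any of the 3 genes, and the groups overlap or meet in each gene.

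Alcam (ENSMUSG00000022636, chr16:52248996-52454074, minus strand, 7 transcripts of which 5 are coding) encodes a molecule that binds itself and CD6 on T cells. Its level was 6.10, 5.74 and 6.48 FPKM in OGE, 2.74, 3.16 and 2.69 FPKM in OGP, and 2.89, 1.74 and 2.04 FPKM in control. The OGE libraries were above all others, whereas OGP and control overlapped. Means were 6.11 ± 0.371 FPKM in OGE, 2.86 ± 0.260 in OGP and 2.22 ± 0.596 in control (SD, n = 3 each). The log2 fold change was 0.97 (SE 0.146) in OGE against OGP, a ratio of means of 2.13, and 1.30 (SE 0.146) in OGE against control, a ratio of 2.75. In OGP against control it was 0.33 (SE 0.146) and not called, with an interval of -0.00 to 0.65, and on leaving out 1 library it was 0.20 (without control replicate 2) to 0.49 (without control replicate 1).

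Mcam (ENSMUSG00000032135, chr9:44134469-44142727, plus strand, 6 transcripts of which 4 are coding) encodes CD146, a molecule of endothelium, pericytes and mesenchymal cells. It had 2.49, 2.52 and 2.87 FPKM in OGE, 2.74, 2.95 and 2.46 FPKM in OGP, and 3.49, 2.96 and 3.0 FPKM in control. OGE and OGP overlapped, and the controls lay just above both. The log2 fold change was -0.04 (SE 0.103, interval -0.27 to 0.19) in OGE against OGP, -0.18 (interval -0.41 to 0.05) in OGP against control and -0.22 (interval -0.45 to 0.01) in OGE against control, none of them called.

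**Figure D3:**
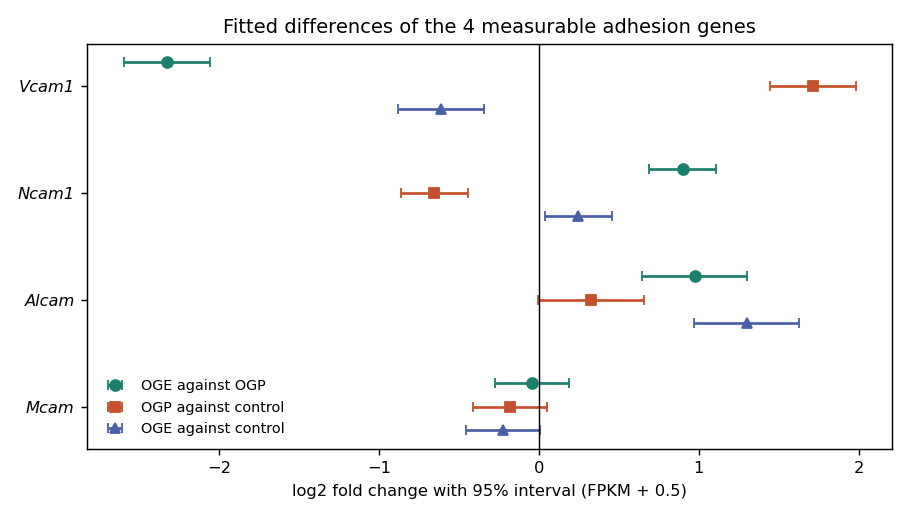
Fitted log2 fold change on the log2(FPKM + 0.5) scale with its 95% interval (x axis) for Vcam1, Ncam1, Alcam and Mcam (y axis) in OGE against OGP, OGP against control and OGE against control. Vcam1 lies at -2.32 and 1.71 in the first and second comparison and Ncam1 at 0.90 and -0.65, while every interval of Mcam holds 0.

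A gene was called where limma gave an adjusted p of at most 0.05 over all genes fitted and the fold was at least 1.5. In OGE against OGP, Ncam1 and Alcam were called higher and Vcam1 lower among the 4 members fitted, beside 3.39% of all genes called higher and 4.73% called lower. In OGP against control, Vcam1 was called higher and Ncam1 lower, beside 6.38% and 5.74% of all genes. In OGE against control, Alcam was called higher and Vcam1 lower, beside 5.14% and 6.33%. The members were chosen for such values, so nothing is read from these counts, and the 3 comparisons share libraries. The median log2 fold change of the 4 members was 0.43 in OGE against OGP, 0.07 in OGP against control and 0.01 between OGE and control, where the medians of all genes were 0.0039, 0.0063 and -0.0034. On leaving out any 1 library, the log2 fold change in OGE against OGP was -2.38 to -2.25 for Vcam1, 0.85 to 0.97 for Ncam1 and 0.93 to 1.04 for Alcam.

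The sum of the 7 genes moved less than its make-up. It was 23.5 ± 0.608 FPKM in OGE, 19.0 ± 0.441 in OGP and 18.6 ± 1.81 in control (SD, n = 3 each). Vcam1 made up 3.67%, 3.80% and 3.05% of that sum in OGE, 29.3%, 33.2% and 34.2% in OGP, and 8.40%, 7.42% and 8.82% in control. Ncam1 made up 55.9% to 61.6% in OGE, 35.0% to 41.8% in OGP and 60.5% to 65.2% in control. The ratio of Vcam1 to Ncam1 within a library, which does not depend on the scaling of the library, was 0.0611, 0.0618 and 0.0546 in OGE, 0.702, 0.950 and 0.912 in OGP, and 0.139, 0.114 and 0.140 in control. The 3 groups do not overlap in it, which follows from their separation in both genes in opposite order and adds no support. The order of levels was Ncam1, Alcam, Mcam, Vcam1 in all 3 OGE libraries and Ncam1, Mcam, Alcam, Vcam1 in all 3 controls. Shares and order both rest on the annotated gene lengths. In OGP, Ncam1 was followed by Vcam1 in all 3 libraries, most closely in replicate 2 with 6.74 against 6.41 FPKM, and Alcam stood above Mcam in replicates 2 and 3, while both had 2.74 FPKM in replicate 1.

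**Figure D4:**
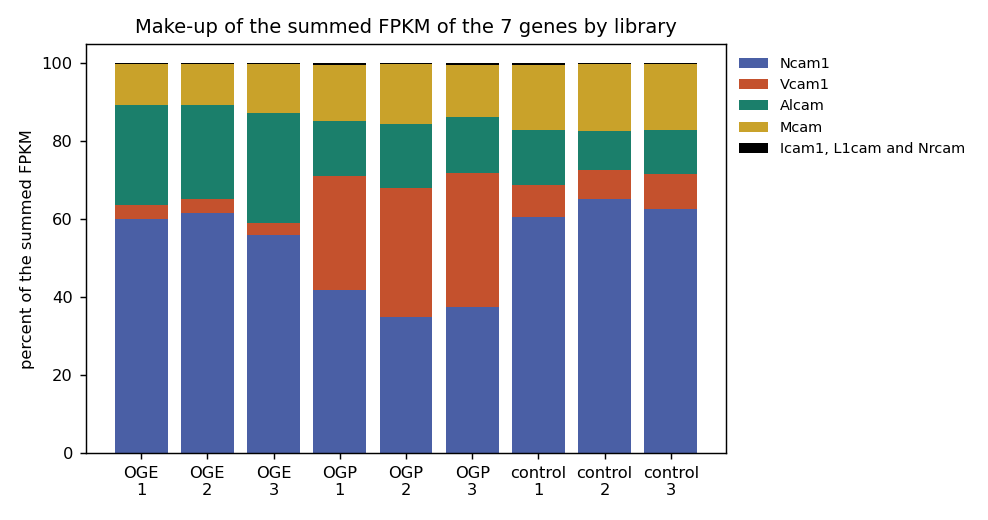
Share of each gene in the summed FPKM of the 7 genes (y axis, percent) in each of the 9 libraries on the x axis, OGE, OGP and control from left to right. The Vcam1 segment takes 29.3% to 34.2% in the OGP libraries, at most 3.80% in the OGE libraries and at most 8.82% in the controls, and Icam1, L1cam and Nrcam together are barely visible.

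Of 52 other adhesion genes of the immunoglobulin type, 15 could be fitted. This list and those below were chosen with earlier results of these data known. Their counts and p-values are thus a description and not independent support. In OGE against OGP 2 were called higher and 2 lower (median log2 fold change 0.09), beside 3.39% and 4.73% of all genes. In OGP against control 0 were called higher and 2 lower (median -0.15), beside 6.38% and 5.74%. There limma at an unadjusted p under 0.05 gave 2 higher and 7 lower, and voom called 2 higher and 3 lower. For the higher direction, leaving out OGP replicate 3, control replicate 1 or control replicate 3 gave 1 call in each case. Pvr, the poliovirus receptor, which binds nectins, averaged 11 ± 0.714 FPKM in OGE, 4.81 ± 0.398 in OGP and 6.63 ± 0.667 in control (log2 fold change 1.12 in OGE against OGP, limma adjusted p = 7.2e-05). Nectin1, a junction molecule, was the other called higher in OGE against OGP, with 3.04 ± 0.259 FPKM in OGE and 1.71 ± 0.371 in OGP (log2 fold change 0.69), a call that was lost at 0.56 without OGP replicate 2. Cadm1, a synaptic and epithelial adhesion molecule, was lower in OGE with 6.94 ± 0.489 FPKM against 11.2 ± 0.647 in OGP (log2 fold change -0.65, limma adjusted p = 0.0011). Icam5, the neuronal relative of Icam1, was called lower at -0.61, but the call was lost on leaving out any of 8 libraries. Nectin2 was lower in OGP, with 9.73 ± 0.890 FPKM against 22.7 ± 2.49 in control (log2 fold change -1.18, limma adjusted p = 7.9e-05), and so was Emb (embigin), at -0.91. The 37 others had no group mean above 0.586 FPKM, and Icam2, Icam4, Pecam1, Madcam1, Ncam2, Chl1 and Nfasc are among them.

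The chains of the integrins that bind VCAM-1 differed widely in level. The alpha chain Itga4 and its relative Itga9 stayed under the limit, as did Itgal, Itgam and Itgax, the alpha chains of the ICAM-1 receptors. The beta chains of the integrins that bind VCAM-1 were measured. Itgb1 averaged 242 ± 18.5 FPKM in OGE, 249 ± 13.7 in OGP and 227 ± 28.5 in control and was not called. Itgb7 had 2.39 ± 0.245, 2.59 ± 0.0598 and 1.36 ± 0.145 FPKM in these groups (log2 fold change 0.73 in OGP against control, limma adjusted p = 0.0011). Of 25 partners 14 were fitted, of which 5 were called higher and 1 lower in OGE against OGP (median 0.22, beside 3.39% and 4.73% of all genes) and 2 higher and 3 lower in OGP against control (median 0.10, beside 6.38% and 5.74%). Without OGP replicate 1, 1 partner was called higher in OGP against control. Among the partners of NCAM, Gfra1, a GDNF co-receptor, had 3.40 ± 0.353 FPKM in OGE, 1.15 ± 0.0342 in OGP and 5.38 ± 0.203 in control (log2 fold change 1.24 in OGE against OGP and -1.83 in OGP against control, limma adjusted p = 3.1e-05 and 4.9e-06). Fgfr1 had 34.5 ± 1.15 FPKM in OGE, 18.1 ± 1.57 in OGP and 15 ± 1.28 in control (log2 fold change 0.91 in OGE against OGP), whereas Fgfr2 had 1.23 ± 0.0357, 1.54 ± 0.209 and 4.71 ± 0.201 FPKM and was lower in OGP than in control (-1.35). Itga5, the alpha chain of the fibronectin receptor, had 52.5 ± 2.62 FPKM in OGE, 28.2 ± 2.70 in OGP and 48.2 ± 1.01 in control. Sema3a, a repulsive guidance cue read by a receptor complex that includes L1, was the gene of this list called lower in OGE against OGP, with 2.88 ± 0.381 FPKM against 8.97 ± 0.252 FPKM (log2 fold change -1.49, limma adjusted p = 0.00012). Itgb2 and Gdnf complete the calls in OGE against OGP and Itgb2 those in OGP against control, named here after their values were seen, and Itgb2 averaged 1.47 FPKM in OGE, 0.586 in OGP and 0.161 in control.

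Proteases that shed these molecules and proteins that tie them to the cytoskeleton came to 18 genes, 15 of them fitted. In OGE against OGP 3 were called higher and 1 lower (median 0.23), beside 3.39% and 4.73% of all genes, and limma at an unadjusted p under 0.05 gave 7 higher and 1 lower. In OGP against control 0 were called higher and 1 lower (median -0.21), beside 6.38% and 5.74%, with 0 higher and 7 lower at an unadjusted p under 0.05 in limma and 0 higher and 2 lower called by voom. Adam17, whose product sheds VCAM-1, was not called, with 11.7 ± 0.768 FPKM in OGE, 11.2 ± 0.369 in OGP and 11.2 ± 1.41 in control. Adam8, Bace1 and the linker moesin (Msn) were higher in OGE than in OGP, by 0.75, 0.81 and 0.63 on the log2 scale (limma adjusted p = 0.0016, 0.0015 and 0.00091). Msn, which binds the tails of VCAM-1 and ICAM-1, had 159 ± 7.21 FPKM in OGE, 103 ± 2.41 in OGP and 102 ± 8.84 in control. Mmp9 was called lower at -0.61 with 0.262 FPKM in OGE against 0.657 in OGP, a call lost without OGE replicate 2 (-0.58), OGE replicate 3 (-0.57) or OGP replicate 3 (-0.57). Mmp14 was lower in OGP, with 16.5 ± 0.990 FPKM against 28.9 ± 1.61 in control (-0.79). The counts of this list and of the Ig-type list moved by over 1.5 times on leaving out 1 library: higher calls of the shedding list in OGE against OGP were 5 without OGP replicate 1, its lower calls in OGP against control were 2 without OGP replicate 1 or control replicate 2, and lower calls of the Ig-type list in OGP against control were 4 without control replicate 1. The polysialyltransferases St8sia2 and St8sia4, which modify NCAM, stayed under the limit.

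Of 34 genes for factors and receptors known to regulate Vcam1 or Icam1, 31 were fitted, and 4 were called higher and 4 lower in OGE against OGP (median 0.11, beside 3.39% and 4.73% of all genes) and 4 higher and 5 lower in OGP against control (median -0.14, beside 6.38% and 5.74%). The NF-kB genes Rela, Relb, Rel, Nfkb1, Nfkb2 and Nfkbia were not among those called. Nfkbia and Nfkb1 missed only the fold limit in OGP against control (log2 fold change -0.51 and -0.28, limma adjusted p = 0.0023 and 0.012). So did Nfkbia in OGE against OGP (0.36, limma adjusted p = 0.017). Rela, Relb, Rel and Nfkb2 did not reach the adjusted p in any comparison. Rela, which encodes the p65 subunit, had 35.9 ± 1.88 FPKM in OGE, 31.8 ± 0.373 in OGP and 33.1 ± 5.01 in control, and Nfkbia, an NF-kB target that encodes its inhibitor, had 79.1 ± 2.03, 61.6 ± 2.03 and 88.2 ± 8.78 FPKM. Of the cytokines that induce Vcam1, Tnf, Il1a and Il1b had no group mean above 0.0103 FPKM. Receptors of these cytokines were measured. Il1r1 had 10.1 ± 0.0825 FPKM in OGE, 6.13 ± 0.112 in OGP and 12.5 ± 1.19 in control. Of the TNF receptors, Tnfrsf1a was lower in OGP than in control (-0.72), whereas Tnfrsf1b was higher (0.71), with 30.1 ± 0.592 FPKM in OGE, 32.4 ± 3.62 in OGP and 19.5 ± 1.22 in control. Il4ra, a cytokine receptor chain, had 19.0 ± 1.26, 6.97 ± 0.994 and 17 ± 1.04 FPKM in OGE, OGP and control (log2 fold change 1.39 in OGE against OGP, limma adjusted p = 4.2e-05). Stat3 had 22 ± 0.620 FPKM in OGE, 11.8 ± 0.344 in OGP and 33.7 ± 1.30 in control. Tlr3, a receptor for double-stranded RNA, had 9.74 ± 2.06, 30.9 ± 1.63 and 20.5 ± 5.50 FPKM, and its call in OGP against control (0.61) was lost on leaving out any of 6 libraries. Klf2, Klf4 and Il6ra were also among the calls in OGE against OGP and were named after their values were seen. Klf4, a factor that restrains Vcam1 in endothelium, averaged 16.5 ± 1.46 FPKM in OGE, 39.4 ± 5.36 in OGP and 19.7 ± 3.92 in control, the same order of groups as Vcam1 (log2 fold change -1.23 in OGE against OGP, 0.99 in OGP against control, and -0.23 and not called in OGE against control). Of the calls in OGP against control, Irf2 (lower), Tnfrsf1b and Tlr4 (both higher, Tlr4 by 1.06) were likewise outside the naming rule.

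**Figure D5:**
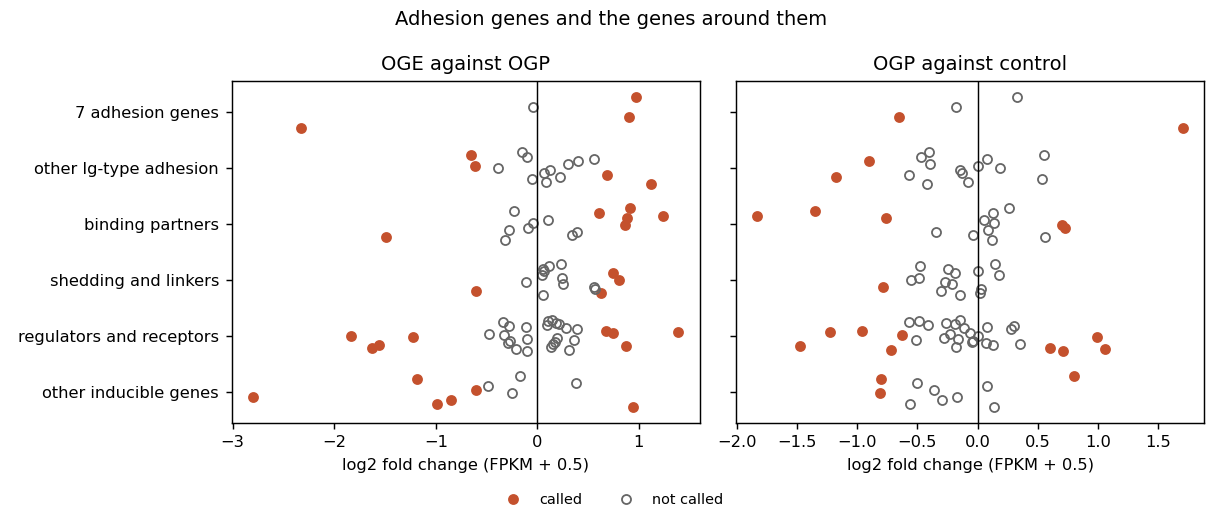
Log2 fold change on the log2(FPKM + 0.5) scale (x axis) of every fitted gene of the 7 adhesion genes and of 5 lists around them (y axis), for OGE against OGP on the left and OGP against control on the right, with filled points for called genes. Vcam1 lies apart on the lower side at -2.32 on the left and on the higher side at 1.71 on the right, and Cxcl10 at -2.80 lies below it on the left.

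A further list held 14 genes, mostly of adhesion, leukocyte recruitment and other cytokine responses, of which 10 were fitted. In OGE against OGP 1 was called higher and 5 lower, with a median of -0.54, beside 3.39% and 4.73% of all genes. Cxcl10, an interferon-induced chemokine, had 22.9 ± 4.63 FPKM in OGE, 160 ± 8.30 in OGP and 181 ± 19.2 in control (log2 fold change -2.80 in OGE against OGP, limma adjusted p = 5.5e-06). Cxcl12 had 22.4 ± 1.56 FPKM in OGE, 40.6 ± 1.09 in OGP and 49.97 ± 1.28 in control, and Ccl5 had 7.32 ± 1.11, 17.2 ± 1.70 and 30.4 ± 2.55 FPKM. F3, which encodes tissue factor, followed the same order, and Cx3cl1, named after its value was seen, is the remaining lower call. Vegfa was the gene called higher, with 25.5 ± 2.81 FPKM in OGE against 13.0 ± 0.783 in OGP. In OGP against control 1 was called higher and 2 lower (median -0.33), beside 6.38% and 5.74%. The higher call was Ccl2, with 666 ± 27.6 FPKM in OGP and 383 ± 28.9 in control, and Cxcl1 and Ccl5 were lower at -0.81 each. Vcam1 and Ccl2 were thus higher in OGP than in control, while Cxcl10 was not called there at -0.17. Ccl2 differed by -0.17 in OGE against OGP, where it had 590 ± 24.1 FPKM in OGE, and was not called. In OGE against control 2 were called higher and 6 lower, with a median of -1.02, beside 5.14% and 6.33%. Sele and Selp, the endothelial selectins induced with Vcam1, stayed under the limit, and so did Cxcl2 and the chemokine Ccl20, which averaged 0.140 ± 0.0857 FPKM in OGE, 1.11 ± 0.425 in OGP and 0.198 ± 0.0725 in control and was not fitted.

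The genes whose log2(FPKM + 0.5) followed Vcam1 most closely over the 9 libraries, of 10463 ranked by Pearson's r, were Cavin2 (0.993), Gstm1 (0.992), Fbln5 (0.988), Flrt3 (0.987), Gbp9 (0.987), Mme (0.985), Nr1h4 (0.985) and Plk2 (0.983). The 9 points fall in 3 groups, so r mostly reads the order of the groups and is given as a description. Cavin2, a caveola protein, had 18.0 ± 1.59 FPKM in OGE, 69.3 ± 5.34 in OGP and 25.7 ± 5.08 in control. Fbln5, an elastic fibre protein that binds integrins, had 2.83 ± 0.155 FPKM in OGE, 8.53 ± 0.185 in OGP and 3.55 ± 0.0421 in control. Mme, which encodes neprilysin, had 1.56 ± 0.436 FPKM in OGE, 7.73 ± 1.24 in OGP and 2.36 ± 0.620 in control, the nearest of the 8 to Vcam1 in its ratio of OGP to OGE. For Ncam1 the closest genes were Runx2 (0.993), Chst11 (0.985) and Smarcc1 (0.982), and Runx2 had 5.49 ± 0.442 FPKM in OGE, 2.79 ± 0.222 in OGP and 4.51 ± 0.212 in control. Those of Alcam were Ankrd10 (0.994), Atp8b4 (0.991) and Klhl24 (0.982). Mcam, whose groups barely differed, had its closest genes at lower r, namely Tbc1d22b (0.938), Trit1 (0.916) and Mid2 (0.914).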

How the data were processed

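HT22 cells were measured by poly-T selected, paired-end RNA-seq in 9 libraries, 3 per group as GEO's labels give them. Per the submitters' processing notes, the authors aligned the reads with HISAT2 2.0.5 to mm10. They deposited FPKM per gene, made from read counts per gene, with the gene length beside each value. Whether the libraries keep strand, and the tool that made the FPKM, are not given in the sources used here. Products of FPKM and gene length came in whole steps in each library, all values whole to within 0.1, which gives back the reads (15026700 to 19476806 per library). Intervals for low genes rest on these reads.

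Genes averaging 0.5 FPKM or more, 13245 in number, were fitted with limma 3.58.1 in R 4.3.3 (trended prior variance) on log2(FPKM + 0.5), all 9 libraries in 1 model of 3 groups, with p-values adjusted by Benjamini and Hochberg. A gene was called at an adjusted p up to 0.05 with a change of 1.5-fold or more. The fit was also run on simulated reads, with the same relative spread for every gene and with changes larger than 1.5-fold only. That run cannot speak to calls near the 1.5-fold limit or to a library that departs from its group. The 7 genes and the lists around them were chosen with earlier results of these data known. Named by rule were the 7 members, up to 4 called genes of each list with the smallest p in OGE against OGP, and as many in OGP against control (2 in OGE against control), the genes of most similar pattern (8 for Vcam1, 3 for each other fitted member) and markers above 1 FPKM. Alternatives were other pseudocounts, filters, scalings, variances, fold thresholds, the 6 libraries compared alone, voom on the reads, a block for the replicate number, and leaving out each library. Spans of the 7 genes are the same in the files and in GENCODE M21. Some genes of the lists are counted but not reported here by name. EV characterization, cell assays and animal experiments were not analysed here.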

Additional observations from a re-analysis of the deposited data

How the results depend on the processing

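Of 252 alternative fits of the 4 members, 244 kept direction and call. The call of 7 was lost and 1 reversed, Mcam in OGE against OGP, at -0.10 to 0.0115 on leaving out 1 library, the highest without OGP replicate 2. Not all of these fits could differ freely. Those with another fold threshold reuse the main fit, and leaving out a library of the group not compared keeps the log2 fold change. Differences that were not called count as kept if they stayed so. Members called were 3 in OGE against OGP (1 with a 2-fold threshold, 3 to 3 on leaving out 1 library), 2 in OGP against control (1 with a 2-fold threshold, 2 to 2) and 2 between OGE and control (1 with a pseudocount of 1, 1 with a 2-fold threshold, 1 to 2). Genes called in OGE against OGP were 1075 (889 to 1181 on leaving out 1 library, 2750 with no fold threshold, 393 with a 2-fold threshold), in OGP against control 1605 (1340 to 1912, 3941 and 436) and between OGE and control 1519 (1342 to 2017, 3287 and 530). Of 1884 fits of the other named genes, 84 lost a call, 33 gained one and 7 reversed, none of the 7 a called difference: Ccl2 in OGE against OGP at 0.0366 with quantile normalization. The others were Icam5 in OGP against control at -0.0003 with a pseudocount of 1, -0.11 with quantile normalization and -0.17 to 0.1226 on leaving out 1 library (-0.05 without OGP replicate 2), and Msn there at -0.0257 with quantile normalization and -0.0331 to 0.0875 on leaving out 1 library. Of 630 list counts, 92 moved by over 1.5 times. The causes were not tested.

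The sources do not say whether the replicate numbers pair the libraries. Deviations from the group means correlated at -0.18 to 0.32 for same-numbered libraries and at -0.35 to 0.26 for others. With 3 libraries a group these deviations are tied to one another, so they cannot decide it. With a replicate block, 1043 genes were called in OGE against OGP, 1581 in OGP against control and 1484 between OGE and control, and the members called were 3, 2 and 2. Depth limits Icam1, L1cam and Nrcam, with at most 5 reads a library.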
